A study of Mus musculus with 6 samples.

Results

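The genes described here carry small molecules through the red cell membrane: Slc6a9, Slc38a5, Slc16a10, Slc22a4, Slc29a1 and Aqp1. They are 6 of the 54532 genes in the deposited count table and were selected by name. The selection used the comparison described here, since Slc6a9 and Slc22a4 were listed because they had no reads in controls, so the members' own values in this comparison are given as a description, with no test. All 6 passed the filter on low counts, which kept 13480 genes, and Slc6a9 and Slc22a4 passed it only through the ruxolitinib libraries.

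All libraries came from the marrow of CByB6F1 females, 2 to 5 months old, with immune bone marrow failure, a disease in which immune attack empties the marrow of blood-forming cells. Marrow cells held by CD8 microbeads, labelled as CD8 T cells, gave the RNA. Ruxolitinib, which blocks JAK1 and JAK2, had been given in 3 libraries (pools 1, 2 and 3), and the 3 controls (pools 4, 5 and 6) had the same failure and were untreated. A pool joins cells of 2 to 3 mice of 1 group, and the dose, the time of treatment and the way the failure was induced were not given in the sources used here.

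A red cell precursor makes very large amounts of haem, and the first committed step of that synthesis joins glycine to succinyl-CoA, so precursors import amino acids at a high rate. SLC6A9 (GlyT1) carries glycine, SLC38A5 carries glutamine, asparagine, histidine, serine and glycine, and SLC16A10 (TAT1) carries aromatic amino acids. SLC22A4 (OCTN1) takes up the antioxidant ergothioneine, SLC29A1 (ENT1) lets nucleosides such as adenosine equilibrate across the membrane, and aquaporin 1 is the water channel of the red cell. Red cells are not the only cells with some of these proteins: ENT1 is found in many cell types, and aquaporin 1 is also known from the lining of blood vessels.

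The libraries held 13829808 to 17708196 counted reads. Values are CPM, a gene's reads scaled to the size of its library with TMM factors, as mean ± SD over 3 pools. The 17 genes that mark CD8 T cells summed to 1879 to 5369 CPM with ruxolitinib and to 10548 to 12877 CPM in controls, so the genes of the labelled cell type were present in every library at unequal levels. The 19 measured red cell markers summed to 126455 to 247414 CPM with ruxolitinib and to 1929 to 2757 CPM in controls, and none of them was at 0 in all controls. All 19 rose (edgeR's quasi-likelihood test, adjusted p under 0.05), against 29.9% of all genes tested. In RNA from a mixture, a change in the number of cells of a type and a change in RNA per cell cannot be told apart. The part of red cell content in the values below was not tested beyond setting each transporter beside other red cell genes.

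Shown first are the promoters of Slc6a9 and Slc22a4, the members without control reads. That of Slc38a5, the amino acid carrier with a GATA word near its start, is shown with them. They were taken because, among the members that are solute carriers, these genes have the steepest contrasts. The promoters are RefSeq sequences (GRCm38, the assembly of mm10), 250 bases before to 30 bases after a start of transcription, 5′ to 3′ on the strand of the gene. Slc6a9 has 3 starts in the table and the most upstream is shown, at chr4:117835008-117835287 on the plus strand. Slc22a4 lies at chr11:54028075-54028354 on the minus strand and Slc38a5 at chrX:8271131-8271410 on the plus strand. Capitals mark a GATA word (AGATAA or AGATAG, or else TGATAA or TGATAG), bound by GATA factors such as GATA1, or the word CCNCNCCC, the kind of sequence bound by KLF factors such as KLF1, on either strand.
Slc6a9: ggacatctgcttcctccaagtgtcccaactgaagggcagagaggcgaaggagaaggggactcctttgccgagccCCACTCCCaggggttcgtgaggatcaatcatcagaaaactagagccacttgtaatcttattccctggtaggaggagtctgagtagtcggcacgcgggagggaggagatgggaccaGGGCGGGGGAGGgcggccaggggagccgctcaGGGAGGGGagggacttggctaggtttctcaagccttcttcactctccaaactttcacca
Slc22a4: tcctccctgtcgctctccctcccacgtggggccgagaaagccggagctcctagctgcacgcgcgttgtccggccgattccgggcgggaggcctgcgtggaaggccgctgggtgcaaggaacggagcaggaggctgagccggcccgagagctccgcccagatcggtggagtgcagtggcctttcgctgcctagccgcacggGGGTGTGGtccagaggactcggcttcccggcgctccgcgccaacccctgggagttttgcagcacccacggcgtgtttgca
Slc38a5: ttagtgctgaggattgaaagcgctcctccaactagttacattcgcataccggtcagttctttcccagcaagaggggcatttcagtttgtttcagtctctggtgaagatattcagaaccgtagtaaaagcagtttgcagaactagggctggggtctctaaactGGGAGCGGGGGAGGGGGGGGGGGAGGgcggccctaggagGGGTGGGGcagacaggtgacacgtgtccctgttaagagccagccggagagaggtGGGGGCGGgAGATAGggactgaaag

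All 6 members were found in the promoter table, with 15 starts between them, of which 8 belong to Slc29a1 and 2 of those overlap. A GATA word was in 2 of the 15 windows, that of Slc38a5, where AGATAG begins 14 bases after the start on the plus strand, and 1 of the 8 of Slc29a1. Of all 32851 windows of 280 bases, 28.7% hold such a word. The CCNCNCCC word was in 15 of 15 windows and in 48.2% of all windows. The members' windows were 52.5% to 72.9% G and C, against a median of 52.5% over all windows, and the word consists mostly of C. A run of G counts as several overlapping matches, as in Slc38a5. These matches are letters in a window and say nothing about binding.

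Amino acid carriers made up 3 of the 6 members. Each was higher in every ruxolitinib library than in any control, as were 35.7% of all genes tested, and the members were chosen from this contrast. Slc6a9 (ENSMUSG00000028542, chromosome 4 at 117834506 to 117875198 on the plus strand, mm10) had 687, 1058 and 585 reads in ruxolitinib pools 1, 2 and 3 and 0 reads in each control. These are 50.2, 80.3 and 36.9 CPM, with a mean of 55.8 ± 22.2 CPM. Against a floor of 3 reads over the 3 controls, 0.0607 CPM, the level was at least 920.3-fold higher with ruxolitinib, or 9.85 on the log2 scale. Without control pool 4 this bound was 9.18, since the same 3 reads were then set over fewer control libraries. Intervals and floors of this kind cover counting error only. Of all genes tested, 0.920% (124) had no read in any control.

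Slc38a5 (ENSMUSG00000031170, chromosome X at 8271133 to 8280179, plus strand) was at 113, 166 and 69.8 CPM in ruxolitinib pools 1 to 3 and at 1.82, 0.327 and 1.12 CPM in control pools 4 to 6. The control values rest on 33, 5 and 18 reads. The means were 116 ± 48.0 and 1.09 ± 0.750 CPM, a 106-fold ratio. Slc16a10 (ENSMUSG00000019838, chromosome 10 at 40033532 to 40142258, minus strand) was at 220, 290.2 and 133 CPM with ruxolitinib and at 21.6, 13.5 and 24.1 CPM in controls. Its means of 214 ± 78.7 and 19.7 ± 5.52 CPM differed by 10.9-fold, the smallest ratio of the 3 amino acid carriers. Control pool 5 was the lowest control for both Slc38a5 and Slc16a10.

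The ergothioneine carrier gene Slc22a4 (ENSMUSG00000020334, chromosome 11 at 53983123 to 54028090, minus strand) had 323, 468 and 247 reads with ruxolitinib, or 23.6, 35.5 and 15.6 CPM, and 0 reads in each control. Its mean of 24.9 ± 10.03 CPM was at least 411-fold above the same floor, or 8.68 on the log2 scale. Without control pool 4 this bound was 8.02, again because the floor was set over fewer control libraries. The water channel gene Aqp1 (ENSMUSG00000004655, chromosome 6 at 55336432 to 55348555, plus strand) was the most abundant member with ruxolitinib, at 810.4, 1163 and 556 CPM. In controls it was at 4.48, 0.980 and 0.809 CPM, so control pool 4 stood above the other controls, and the means of 843 ± 305 and 2.09 ± 2.07 CPM gave a 403-fold ratio. Without control pool 4 the log2 ratio went from 8.66 to 9.88.

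The nucleoside carrier gene Slc29a1 (ENSMUSG00000023942, chromosome 17 at 45585200 to 45599606, minus strand) had a far smaller contrast. It was at 115, 156 and 107 CPM with ruxolitinib and at 92.6, 105 and 107 CPM in controls, from 1575 to 2050 reads and 1603 to 1714 reads in each library. The means of 126 ± 26.02 and 101 ± 7.59 CPM differed by 24.6 CPM, less than the SD among the ruxolitinib pools, with a ratio of 1.24. Its lowest ruxolitinib value, 107.1 CPM, lay just above its highest control value, 106.6 CPM, and that order was lost with RLE factors and with haemoglobin genes removed. Under the scaling used, 6 of the 6 members thus had groups that do not overlap, higher with ruxolitinib, where 35.7% of all genes tested did and 30.3% did so on the lower side. When libraries were scaled to the CD8 T cell markers in place of TMM, the ratio of Slc29a1 was 4.95 and the other members' ratios were larger too. The members were chosen from this contrast, so nothing is read from that count.

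**Figure D1:**
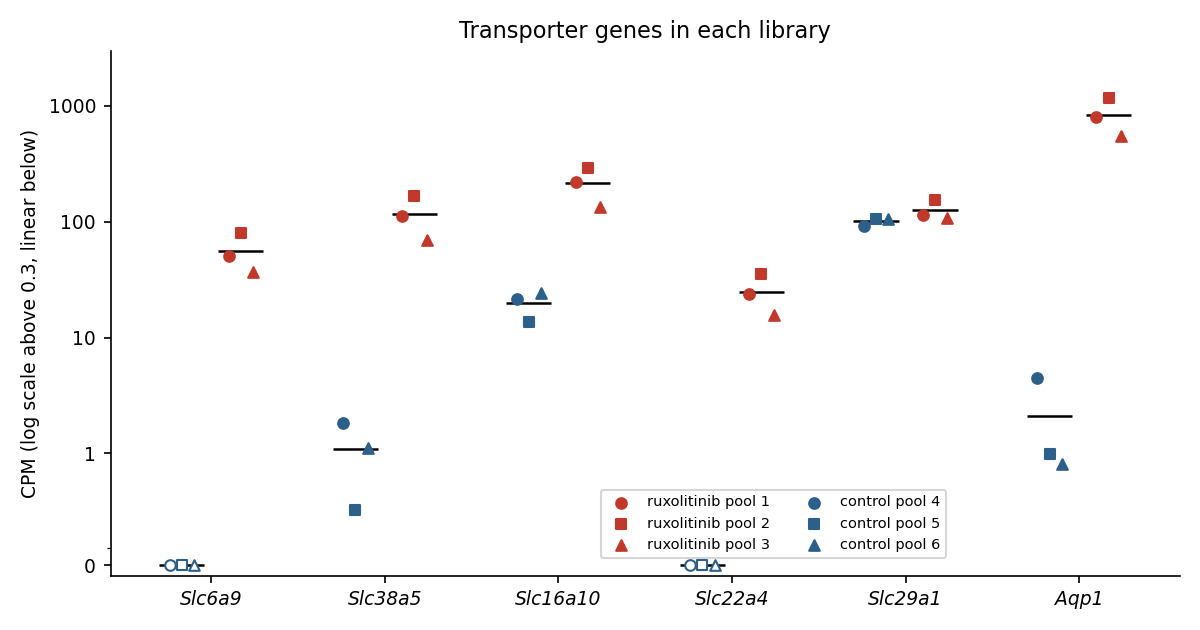
CPM of each transporter gene in each library, on a log axis that is linear below 0.3 so that 0 can be shown. Red points are the 3 ruxolitinib pools, blue points the 3 control pools, open points have 0 reads and the bars are group means. Slc6a9 and Slc22a4 are at 0 in the 3 controls, and only Slc29a1 has group means as near as 126 and 101 CPM.

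Levels were compared between members per length, as CPM per kilobase of the deposited gene length. With ruxolitinib the order was Aqp1 (321 ± 116 CPM per kilobase), Slc38a5 (51.8 ± 21.4), Slc29a1 (31.4 ± 6.49), Slc16a10 (29.1 ± 10.7), Slc6a9 (10.9 ± 4.33) and Slc22a4 (9.76 ± 3.93). Aqp1 stood clear of the rest, with a lowest library of 212 against 73.9 for the highest of Slc38a5. The ranges of Slc38a5, Slc29a1 and Slc16a10 overlapped, and so did those of Slc6a9 and Slc22a4. In controls the order was Slc29a1 (25.3 ± 1.89), Slc16a10 (2.68 ± 0.751), Aqp1 (0.795 ± 0.789), Slc38a5 (0.487 ± 0.334), and Slc6a9 and Slc22a4 at 0. The ranges of Aqp1 and Slc38a5 overlapped there, whereas Slc29a1 and Slc16a10 each stood clear of the gene below them. The nucleoside carrier therefore led the controls and was the third of the 6 with ruxolitinib.

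Within the ruxolitinib group all 6 members were highest in pool 2 and lowest in pool 3. Of all genes tested 20.2% had that order, as did 16 of 19 red cell markers and 14 of 30 other red cell transporters. It was seen in 0 of 17 CD8 T cell markers, 1 of 12 granulocyte markers, 1 of 9 B cell markers, 5 of 17 macrophage markers and 7 of 12 endothelial markers. The ratio of the highest to the lowest pool was 2.09 to 2.37 for the 5 members other than Slc29a1 and 1.45 for Slc29a1. The 9 red cell genes used as a reference (Epor, Klf1, Gata1, Epb42, Sptb, Ermap and Hemgn among them, with no haemoglobin gene and no transporter) had geometric means of 279, 412 and 181 in the same pools, each taken over CPM plus 0.5. In controls this mean was 2.75, 1.79 and 1.42, with Klf1 and Epb42 at 0 in control pool 6, so that the added 0.5 weighs on the control side.

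Set against these reference genes, 5 of the members held a nearly constant level from one ruxolitinib pool to the next. The log2 ratio of Slc22a4 to the reference was -3.53, -3.51 and -3.49 in pools 1 to 3, a range of 0.04 where its own log2 level ranged over 1.16. The range of the ratio was 0.06 for Slc38a5, 0.12 for Aqp1, 0.16 for Slc16a10 and 0.19 for Slc6a9. For Slc29a1 the range of the ratio was 0.65, against 0.54 for its own log2 level, so dividing by red cell genes did not narrow its spread. With 3 pools these ranges are a description.

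Between the groups the members' values relative to the mean of the reference genes differed in sign. The reference genes themselves had log2 fold changes from 5.60 to 8.82 by edgeR. Aqp1 (8.63) and Slc38a5 (6.70) lay inside that span, and Slc16a10 (3.44) and Slc29a1 (0.31) lay below it. On the scale of log2(CPM + 0.5) the mean of the reference genes was 7.16 higher with ruxolitinib, and relative to it Aqp1 was higher by 1.40 with ruxolitinib, while Slc38a5 was at -0.93, Slc16a10 at -3.79 and Slc29a1 at -6.87. With the 4 haemoglobin genes as reference the same values were 2.19, -0.14, -2.998 and -6.08, so that of Slc38a5 came close to 0. For every 1000 reads of the reference genes, Slc16a10 had 67.8 reads with ruxolitinib and 1253 in controls, and Slc29a1 had 40.4 and 6351. Aqp1 went the other way, with 267 and 139. At the ratio seen with ruxolitinib, the 786 reference reads of the controls would go with 31.7 reads of Slc29a1 and 53.3 of Slc16a10, and 4992 and 985 were counted.

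For Slc38a5 the reads that the controls would hold at the ruxolitinib ratio were 28.8 by the reference genes and 67.4 by the 4 haemoglobin genes, and 56 were counted. Slc6a9 and Slc22a4 were listed for having no control reads, so no such comparison is made for them. These comparisons rest on few control reads of the reference genes.

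**Figure D2:**
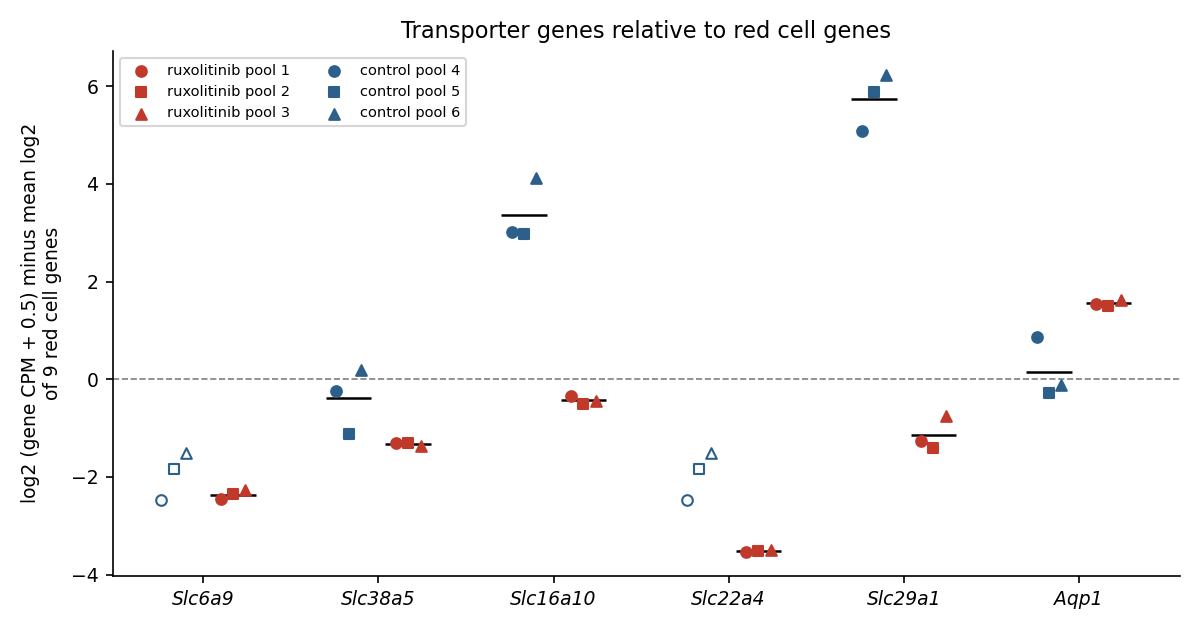
For each gene, log2 of CPM plus 0.5 minus the mean of the same value over 9 red cell genes, in each library. Red points are ruxolitinib pools, blue points controls, bars group means, and open points have 0 reads, so that their height reflects the added 0.5 alone. The ruxolitinib pools of Slc22a4 lie within 0.04 of each other, and the control points of Slc29a1 and Slc16a10 lie far above their ruxolitinib points.

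The genes whose profile over the 6 libraries lay nearest to each member were found by the root mean square difference of centred log2 values. Nearest to Slc6a9 were Sox6 (0.20), Aldh1a1 (0.28) and 1300017J02Rik (0.29), and nearest to Slc22a4 were Mylk3 (0.10), F930017D23Rik (0.12) and Gata1 (0.12), the gene of the master factor of red cell development. Aqp1 lay nearest to Trim10 (0.13), the anion exchanger gene Slc4a1 (0.27) and Hemgn (0.44). Slc38a5 lay nearest to Ces2g (0.11), Cd24a (0.14) and Tal1 (0.24). Slc16a10 lay nearest to Pilrb2 (0.11), Map3k20 (0.13) and Daam1 (0.14), and Slc29a1 to Gm8116 (0.06), the asparaginyl-tRNA synthetase gene Nars (0.06) and Fam83d (0.07). Gata1 and Hemgn are also among the reference genes, and for Slc6a9 and Slc22a4 the control side of the profile rests on the pseudocount. Without control pool 5 or without control pool 6, 0 of the 3 genes named for Slc6a9 and for Slc16a10 remained among the nearest 3. For Slc29a1, 0 remained without ruxolitinib pool 1, ruxolitinib pool 2 or control pool 6. Between members the smallest difference was that of Slc6a9 and Slc38a5 (0.51) and the largest that of Slc29a1 and Aqp1 (4.19).

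Glycine and haem genes outside the members, from a list of 20, separated by role. All 12 genes of haem synthesis and its mitochondrial carriers rose, and all 7 tested genes of serine and glycine synthesis and cleavage fell (edgeR's quasi-likelihood test, adjusted p under 0.05), where 29.9% of all genes rose and 25.3% fell. The gene of that group that was not tested, Amt, was higher with ruxolitinib, at 0.524 ± 0.126 CPM against 0.0553 ± 0.0958 CPM. When libraries were scaled to the CD8 T cell markers, which put the median of all genes at 2.00 in place of 0.03, the 7 falls became 1, that of Phgdh. The median of the 8 haem enzymes was 3.14 on the log2 scale, that of the 4 carriers 3.75 and that of the serine and glycine genes -2.11, against 0.03 for all genes tested. The CD8 T cell markers, of which 16 of 17 fell with a median of -1.70, were lower in the same libraries, and their part in the falls was not tested.

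Alas2, which encodes the enzyme that joins glycine to succinyl-CoA in red cell precursors, rose from 10.4 ± 6.99 to 4861 ± 1785 CPM (log2 fold change 8.86 ± 0.74, edgeR adjusted p = 2.64e-05). Fech, which inserts the iron into haem, rose from 14.7 ± 1.39 to 1120 ± 410 CPM (6.25 ± 0.38), and the mitochondrial iron carrier gene Slc25a37 from 20.6 ± 2.10 to 1338 ± 544 CPM (6.02 ± 0.40). Abcb10, a mitochondrial transporter needed for haem synthesis, rose by 5.09 ± 0.34. Slc25a38, which carries glycine across the mitochondrial membrane, had the smallest rise of the 12 (1.81 ± 0.30), and was chosen here for its role after its value was seen. Phgdh, which starts serine synthesis from a glycolytic intermediate, fell from 610 ± 110 to 55.9 ± 34.8 CPM (-3.45 ± 0.43, adjusted p = 0.000189, and -4.09 without ruxolitinib pool 3). Under CD8 marker scaling it was at -1.80. Shmt1, which turns serine into glycine in the cytosol, fell by 2.18 ± 0.27, and Psph and Psat1, which finish serine synthesis, were at -2.11 ± 0.28 and -1.80 ± 0.23 on the log2 scale. Under CD8 marker scaling these became -0.36, -0.34 and 0.049, none past the threshold.

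**Figure D3:**
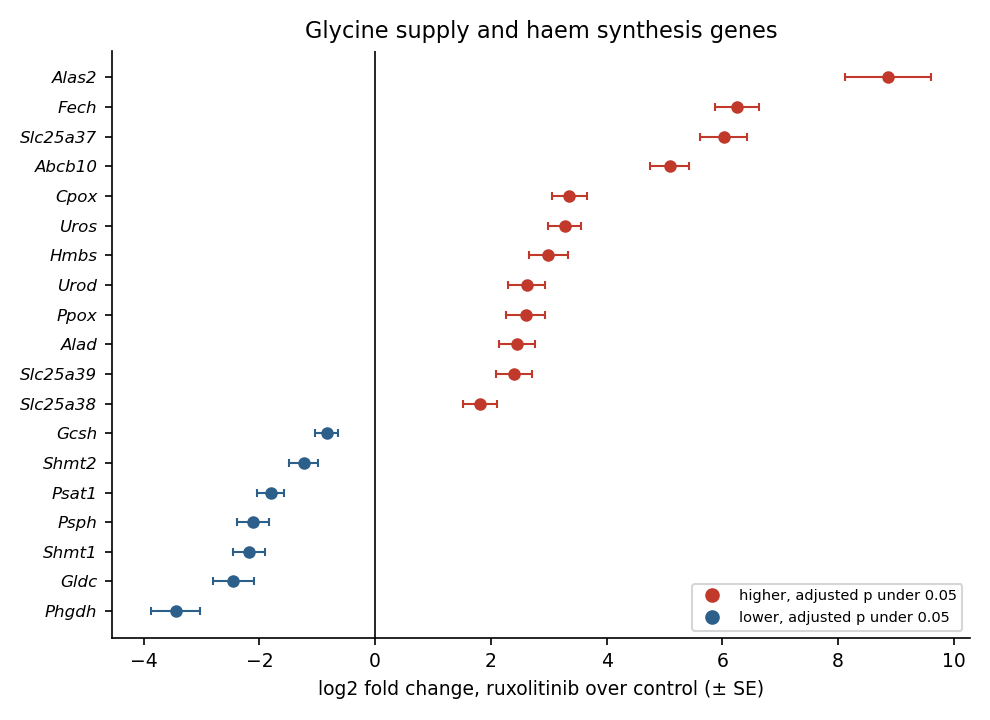
log2 fold changes, ruxolitinib over control, of the 19 tested genes of glycine supply and haem synthesis, with SE as bars. The 12 haem synthesis genes and carriers lie to the right of 0 (red) and the 7 serine and glycine genes to the left (blue), of which Phgdh alone was past the threshold on the lower side when libraries were scaled to CD8 T cell markers.

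Of 30 other transporters, channels and pumps of red cells, 20 rose and 3 fell, while 7 were not past the threshold (median log2 fold change 1.26), where 29.9% of all genes rose and 25.3% fell. Under CD8 marker scaling the falls became 0, where 65 of all 13480 genes tested were lower. Slc7a5, Slc3a2, Slc16a1 and Slc2a1 were placed in this list and not in the list of lymphocyte carriers, so the counts of each list depend on that assignment. The S1P exporter gene Mfsd2b rose from 0.650 ± 0.0601 to 82.0 ± 30.4 CPM (log2 fold change 6.97 ± 0.38, edgeR adjusted p = 1.59e-05). Slc43a1, an amino acid carrier gene, rose from 2.92 ± 0.638 to 209 ± 95.3 CPM (6.15 ± 0.41). Slc4a1, the gene of the anion exchanger band 3, rose by 8.61 ± 0.62, and Aqp9, a channel gene for glycerol and water that mouse red cells use and neutrophils also express, by 5.57 ± 0.38. The folate carrier gene Slc19a1 (-1.81 ± 0.24), the sodium pump subunit gene Atp1b3 (-1.04 ± 0.21) and the glucose carrier gene Slc2a1 (-1.10 ± 0.30) fell, with values of 0.027, 0.87 and 0.68 under CD8 marker scaling. The call of Slc2a1 was lost without ruxolitinib pool 1 (adjusted p = 0.0646) or pool 2 (0.0547).

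**Figure D4:**
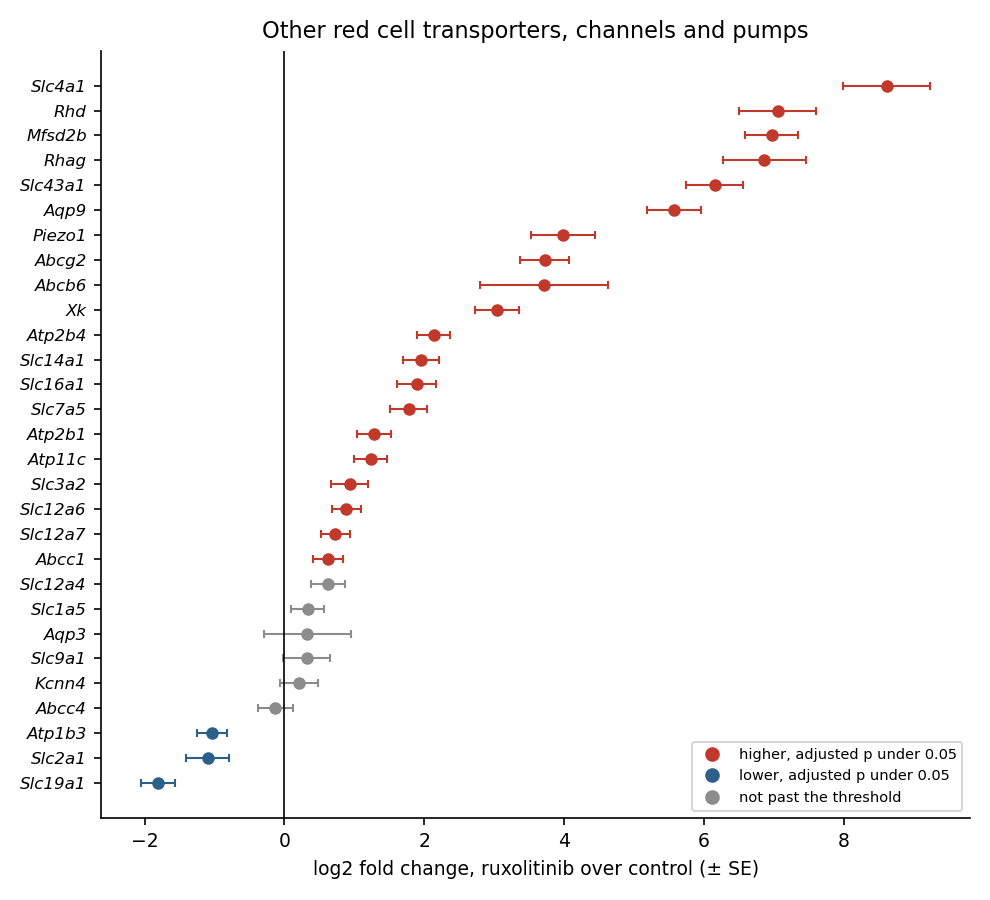
log2 fold changes, ruxolitinib over control, with SE as bars, of 29 other red cell transporters, channels and pumps. The 20 genes in red rose and the 3 in blue fell, the latter only without scaling to CD8 T cell markers, and the plotted genes run from -1.81 (Slc19a1) to 8.61 (Slc4a1).

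The other genes of the 6 families, by symbol, numbered 80, of which 50 had a read and 32 passed the filter. Of these 20 rose, Slc16a11 and Slc38a1 fell and 10 were not past the threshold (median 1.76), beside 29.9% and 25.3% of all genes. Under CD8 marker scaling neither of the falls remained, and without ruxolitinib pool 1 or 2, or control pool 4 or 5, the 2 falls became 1. The family list shares 3 genes with the red cell list and 4 with the list of lymphocyte carriers. Slc22a23, an orphan carrier gene, rose from 0.479 ± 0.114 to 34.0 ± 11.2 CPM (6.11 ± 0.39, edgeR adjusted p = 1.59e-05). The creatine carrier gene Slc6a8 rose by 3.76 ± 0.30 and the monocarboxylate carrier gene Slc16a7 by 5.43 ± 0.52. Slc6a20a and Slc16a12 had 0 reads in all controls, like Slc6a9 and Slc22a4, and were at 10.3 ± 3.32 and 0.851 ± 0.165 CPM with ruxolitinib, at least 169-fold and 14.0-fold above the floor. Both were picked out after their values were seen.

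The nearest relatives of Slc29a1 showed no common direction. Of its 3 paralogs the lysosomal nucleoside carrier gene Slc29a3 rose (0.93 ± 0.24, edgeR adjusted p = 0.00931), and the values of Slc29a2 (-1.20 ± 0.57, adjusted p = 0.101) and Slc29a4 (-0.52 ± 0.42, adjusted p = 0.319) did not pass. Slc16a11 fell by 1.92 ± 0.30 and was at -0.15 under CD8 marker scaling. Slc38a1, a glutamine carrier gene of lymphocytes, fell by 0.67 ± 0.23. Under CD8 marker scaling it was at 1.203 and past the threshold on the higher side (edgeR adjusted p = 0.0490). The fall of Slc38a1 lost its call without ruxolitinib pool 1 (adjusted p = 0.130) or 2 (0.110), or without control pool 4 (0.0991) or 5 (0.0917). It was also lost with total-count scaling (0.0832). Slc38a10, the most abundant paralog that did not pass, had a value of 0.53 ± 0.25 (adjusted p = 0.101) and passed without control pool 4 (adjusted p = 0.0346).

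**Figure D5:**
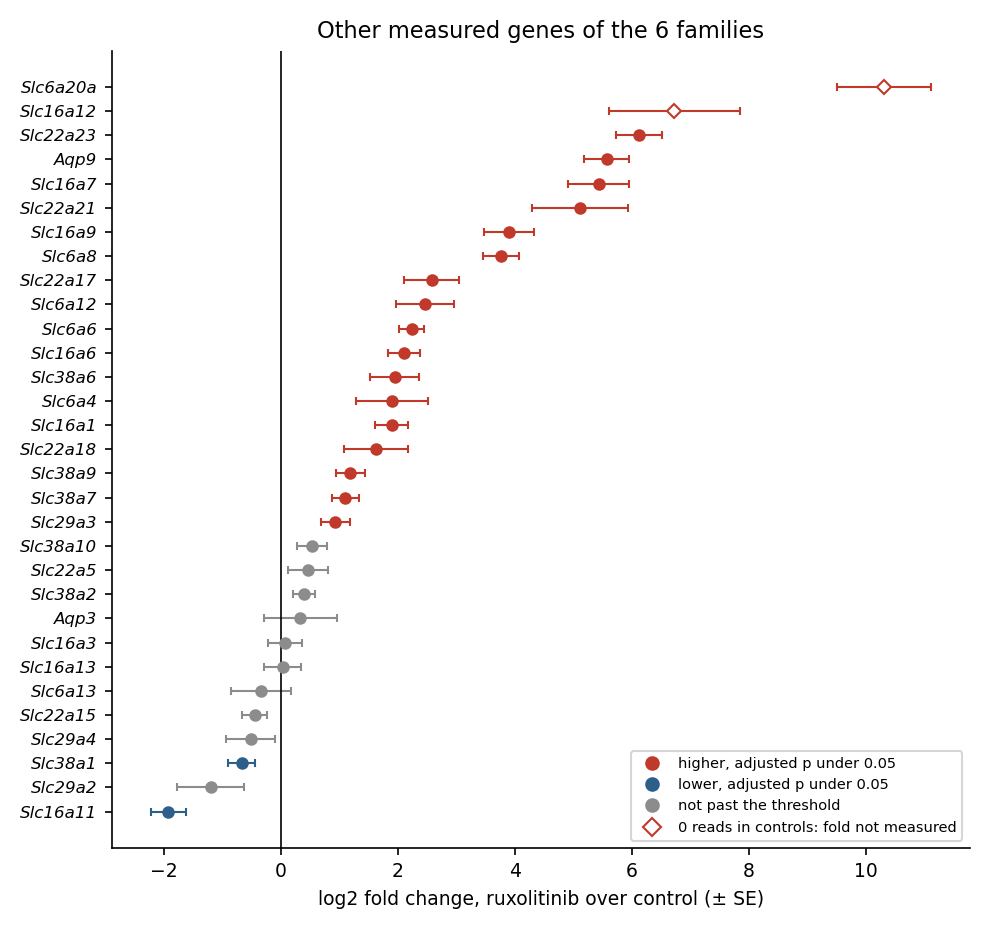
log2 fold changes, ruxolitinib over control, with SE as bars, of 31 tested genes of the Slc6a, Slc38a, Slc16a, Slc22a, Slc29a and Aqp families other than the 6 members. Open diamonds have 0 reads in controls, so their position is not a measured size. The 19 genes in red rose, and neither of the falls, Slc16a11 and Slc38a1, was past the threshold on the lower side under CD8 marker scaling.

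A list of 13 carrier genes is termed nutrient carriers of lymphocytes here, though not all of them are known for feeding activated T cells. Slc7a5, Slc3a2, Slc16a1 and Slc2a1 stood in the red cell list instead. Of the 13, 2 rose, 2 fell and 9 were not past the threshold (median 0.16), fewer each way than the 29.9% and 25.3% of all genes. The taurine carrier gene Slc6a6 (2.23 ± 0.22, edgeR adjusted p = 5.55e-05) and the amino acid carrier gene Slc43a2 (2.27 ± 0.26) rose. Besides Slc38a1, the cationic amino acid carrier gene Slc7a6 fell (-1.40 ± 0.24, and 0.45 under CD8 marker scaling). The 2 falls became 1 without ruxolitinib pool 1 or 2 or control pool 5. The glucose carrier gene Slc2a3 did not pass (0.45 ± 0.29, adjusted p = 0.206). Under CD8 marker scaling 11 of the 13 were higher and 0 lower, where 9494 of all 13480 genes tested were higher and 65 lower.

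Genes that handle the nucleosides moved by ENT1 were called about as often as genes in general. Of 20 tested, 6 rose, 7 fell and 7 were not past the threshold (median -0.29), where 29.9% of all genes rose and 25.3% fell. Ada, which deaminates adenosine, rose from 13.3 ± 1.30 to 43.0 ± 8.86 CPM (1.69 ± 0.23, edgeR adjusted p = 0.000295). Nt5c3, the pyrimidine nucleotidase gene of red cells, rose by 1.40 ± 0.33, and so did the mitochondrial thymidine kinase gene Tk2 (1.63 ± 0.30) and the nucleotidase gene Nt5c2 (1.34 ± 0.29). The adenine salvage gene Aprt fell from 536 ± 260 to 84.0 ± 11.2 CPM (-2.67 ± 0.35), and the uridine kinase gene Uck2 and the nucleotidase genes Nt5c3b and Nt5c fell by 1.57 ± 0.22, 2.00 ± 0.30 and 1.41 ± 0.26. Under CD8 marker scaling these 4 were at -0.83, 0.31, -0.20 and 0.45, none past the threshold. With that scaling 13 of the list were higher and 0 lower, beside 9494 and 65 of all 13480 genes tested. The thymidine kinase gene Tk1 did not pass (-0.22 ± 0.26, adjusted p = 0.501).

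The genes around the members on the chromosome were called at shares near those of all genes, 29.9% higher and 25.3% lower. Of 34 genes within 50 kb of a member, 11 passed the filter, and of these 3 rose, 3 fell and 5 did not pass (median -0.12). Under CD8 marker scaling 9 were higher and 0 lower, beside 9494 and 65 of all 13480 genes tested. Slc22a21, a close relative that lies 2791 bases from Slc22a4, rose from 0.0586 ± 0.0556 to 2.37 ± 1.15 CPM (5.11 ± 0.81, edgeR adjusted p = 0.000683, and 5.87 without control pool 4), from 3 reads in all controls and 98 with ruxolitinib. Some of its reads could be shared with its relatives. Pdlim4, 26838 bases from Slc22a4 on the other side, rose from 6.50 ± 3.44 to 24.8 ± 7.92 CPM (1.93 ± 0.39). Mindy4, next to Aqp1, rose by 2.74 ± 0.98 from 5 control reads, all in pool 6, and passed neither with DESeq2 (adjusted p = 0.0524) nor without any 1 of the pools 1 to 5 (adjusted p from 0.0824 to 0.107). Without control pool 6 its value was 6.48.

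Beside Slc29a1, the chaperone gene Hsp90ab1 (-1.20 ± 0.24, edgeR adjusted p = 0.00221) and the sulfate donor carrier gene Slc35b2 (-0.56 ± 0.18, adjusted p = 0.0234) fell, and both turned to positive values, 0.74 and 1.39, under CD8 marker scaling. The call of Slc35b2 was lost without ruxolitinib pool 1 or 2 or control pool 4 or 5 (adjusted p from 0.0578 to 0.0986), or with total-count scaling (0.0540). Nfkbie did not pass (0.31 ± 0.18, adjusted p = 0.165). Beside Slc38a5, Ftsj1 did not pass (0.43 ± 0.25, adjusted p = 0.162), and no tested gene lay near Slc16a10. Atp6v0b, Ipo13 and Dph2, which lie 9128 to 19288 bases from Slc6a9, did not pass either (-0.36 ± 0.31, -0.17 ± 0.19 and -0.12 ± 0.32).

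Some members overlap genes on the other strand, and whether strand was used in counting was not given in the sources used here, so reads of such pairs cannot be told apart. B4galt2, on the strand opposite to Slc6a9, had 98 reads in controls and 19 with ruxolitinib (-2.17 ± 0.54, edgeR adjusted p = 0.00734, and -0.51, not past the threshold, under CD8 marker scaling), the reverse of Slc6a9. Ccdc24, also within Slc6a9 on that strand, had 0 control reads and 6 with ruxolitinib. Gm17080, antisense to Slc29a1, had 1 and 19 reads, far fewer than the 4992 and 5322 of Slc29a1.

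Most markers of the other cells that could carry members were also higher, where 29.9% of all genes tested rose and 25.3% fell. All 17 macrophage markers rose (median 3.03), with a summed level of 8281 to 13546 CPM with ruxolitinib and 1225 to 1380 CPM in controls, and the most abundant were Hmox1 and C1qa. Of 12 tested endothelial markers 8 rose, with a summed level of 139.8 to 198 CPM against 43.1 to 53.2 CPM. Of the 15 listed, Emcn and Tek were at 0 in all controls. The most abundant were Stab2 (3.66 ± 0.28), which macrophages of some tissues also express, and Pecam1 (-0.33 ± 0.20, adjusted p = 0.180 by edgeR). All 9 tested B cell markers rose (median 6.04), with Ms4a1 and Pax5 among those at 0 in controls, and of 12 granulocyte markers 9 rose and Prtn3 fell (median 2.31). The part of these cells in the members' values was not tested.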

How the data were processed

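Gene counts came from 6 libraries of pooled cells, built from total RNA (NEBNext Ultra II, per the labels). The authors deposited raw read counts per gene, whole numbers and not normalised, with a gene length in bases as an other value. Per the submitters' processing notes the reads were aligned with HISAT2 2.0.5 to mm10. The counting program, strand setting, annotation release and origin of the gene length were not given in the sources used here. Pools were matched by the names in the titles.

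Tests used edgeR 4.0.16 under R 4.3.3 (TMM, filterByExpr and a robust quasi-likelihood fit with group alone) over 13480 genes, with Benjamini-Hochberg adjusted p under 0.05. SE is the log2 fold change over the square root of F. Log2 levels used a pseudocount of 0.5 CPM. Folds against groups without reads used a floor of 3 reads. The members and lists were chosen with earlier results of these data known. From each list up to 4 called genes a direction by p and the most abundant uncalled gene are named, with tested genes within 50 kb and the 3 nearest in pattern. The count of reads that controls would hold was added after the data were seen. Of the red cell list, Ahsp was not analysed here, and a few genes of the lists that enter the counts are not reported here by name. The test was checked on simulated data. Alternatives were other factors, filters, DESeq2 1.42.0, limma-voom (limma 3.58.1), scaling to CD8 markers and leaving out each pool.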

Additional observations from a re-analysis of the deposited data

How the results depend on the processing

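No paired analysis was possible because the pools are numbered 1 to 3 in one group and 4 to 6 in the other, with no shared number. Scaling to CD8 T cell markers changed most: 9494 genes were higher and 65 lower, 11 and 0 nutrient carriers of lymphocytes, 13 and 0 nucleoside genes and 9 and 0 neighbours were higher and lower, 1 glycine and haem gene was lower, and 0 other red cell transporters and 0 paralogs were lower. The members' log2 folds became 11.93 or more for Slc6a9, 8.82 for Slc38a5, 5.49 for Slc16a10, at least 10.78 for Slc22a4, 2.31 for Slc29a1 and 10.82 for Aqp1. Not every gene named above was followed through the alternatives. Among those followed, values that changed sign under CD8 marker scaling were those of Slc19a1 (0.027), Atp1b3 (0.87), Slc2a1 (0.68), Slc7a6 (0.45), Slc38a1 (1.203), Psat1 (0.049), Uck2 (0.31), Nt5c (0.45), Tk1 (1.79), Atp6v0b (1.58), Ipo13 (1.79), Dph2 (1.85), Hsp90ab1 (0.74) and Slc35b2 (1.39). That scaling assumes that the CD8 T cell markers do not respond to the drug, and the cause was not tested. With total-count scaling 1 nutrient carrier of lymphocytes and 1 paralog were lower. With haemoglobin as reference, the relative log2 folds were 3.41 (Slc6a9), -0.14 (Slc38a5), -2.998 (Slc16a10), 2.26 (Slc22a4), -6.08 (Slc29a1) and 2.19 (Aqp1). Those of Slc6a9 and Slc22a4 set the controls at 3 reads and depend on the pseudocount, so they are no bounds. Both genes were listed for having no control reads, so nothing is read from their relative folds. With the 9 red cell genes as reference their values were 2.62 and 1.47, and a pseudocount of 0.1 CPM made these 2.12 and 0.95. At that pseudocount 1 of 3 nearest genes was shared for Slc6a9, Slc38a5 and Slc22a4. Leaving out 1 pool gave 1 to 2 lower genes among paralogs and among carriers of lymphocytes. It gave log2 folds of 9.18 to 10.07 for Slc6a9, 8.02 to 8.92 for Slc22a4 and 8.26 to 9.88 for Aqp1. Relative folds against the 9 red cell genes, from which again nothing is read, were 1.71 to 2.67 for Slc6a9 and 0.55 to 1.48 for Slc22a4. Shared nearest genes were 0 to 2 for Slc6a9, 1 to 3 for Slc38a5 and 0 to 3 for Slc16a10. They were 1 to 3 for Slc22a4 and 0 to 2 for Slc29a1. RLE and upper-quartile factors, haemoglobin genes removed, DESeq2, limma-voom and both other filters kept every list count within 1.5 times. For Slc6a9 and Slc22a4, folds without a control pool rest partly on the floor of 3 reads being set over fewer control libraries. Low control counts limit the members: 5 to 33 reads a library for Slc38a5 and 13 to 81 for Aqp1. The pools are few, so p-values measure the spread of 3 pools a group.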
